A study of Mus musculus with 8 samples.

Results

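The genes described here carry the inflammasome and pyroptosis pathway, and 10 genes were taken by symbol from the 24584 genes in the tables, namely the sensors Nlrp3, Aim2, Nlrc4 and Nlrp1b, the adaptor Pycard, the caspases Casp1, Casp4 and Casp8, and the effectors Gsdmd and Ninj1. All 10 passed the filter on low counts and were among the 15706 genes tested. The RNA came from whole lung of male ICR mice aged 6 to 8 weeks, labelled "widetype", all of which had received an intraperitoneal injection of lipopolysaccharide (LPS) from Escherichia coli O111:B4 at 5 mg/kg as a model of sepsis-induced acute lung injury. The LPS group (n = 4 lung samples) received no tangeretin, and in the LPS + Tan group (n = 4 lung samples) tangeretin, a citrus flavonoid, was given intraperitoneally, 50 mg/kg, 30 min ahead of LPS. Lungs were taken 12 h after LPS. No untreated lungs and no lungs given tangeretin alone are part of the comparison, so it gives the difference between lungs with and without tangeretin under LPS and not the response of these genes to LPS itself.

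Inflammasomes are multiprotein platforms that assemble in the cytosol when a sensor meets a danger or microbial signal. The sensor recruits ASC, the protein of Pycard, which gathers and activates caspase-1, and caspase-1 then matures the cytokines IL-1β and IL-18 and cleaves gasdermin D. The freed gasdermin D fragment forms pores in the plasma membrane, and ninjurin-1, encoded by Ninj1, ruptures the membrane of the dying cell. LPS that reaches the cytosol is bound directly by caspase-11, the mouse protein of Casp4, which cleaves gasdermin D without a sensor of the canonical kind. In LPS-challenged lung the pathway is best known from macrophages, neutrophils and endothelial cells. Much of its control is at the protein level, by assembly and cleavage, which transcript counts do not measure. In whole lung, fewer cells of a type and less RNA per cell cannot be told apart.

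Promoter sequences were taken for 9 of the 10 genes, all but Gsdmd (RefSeq, GRCm38.p6), and were searched, from 250 bases before to 50 bases after each start site, for motifs of the transcription factors that LPS and interferon activate. The motifs were the interferon-stimulated response element, taken as a pair of GAAA repeats with any 2 bases between them, the interferon-gamma activated site, spelled TTCNNNGAA, and the NF-kB consensus, each on both strands. Casp4 and Nlrp3 are shown because they were the only ones whose windows held a match, and Ninj1 because it had the lowest p of the 10 genes. The 250 bases before the start site are given, all on the plus strand, and capitals mark bases inside a match to the NF-kB consensus.
Casp4: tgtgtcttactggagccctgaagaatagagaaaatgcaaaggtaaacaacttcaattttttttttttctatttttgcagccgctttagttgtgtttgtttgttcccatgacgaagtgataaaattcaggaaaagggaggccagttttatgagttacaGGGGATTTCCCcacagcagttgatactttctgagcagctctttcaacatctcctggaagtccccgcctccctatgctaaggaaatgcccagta
Nlrp3: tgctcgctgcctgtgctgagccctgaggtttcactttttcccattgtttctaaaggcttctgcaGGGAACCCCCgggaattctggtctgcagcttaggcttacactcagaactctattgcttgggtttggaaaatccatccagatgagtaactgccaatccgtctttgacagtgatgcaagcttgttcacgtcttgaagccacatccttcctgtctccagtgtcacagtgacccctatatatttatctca
Ninj1: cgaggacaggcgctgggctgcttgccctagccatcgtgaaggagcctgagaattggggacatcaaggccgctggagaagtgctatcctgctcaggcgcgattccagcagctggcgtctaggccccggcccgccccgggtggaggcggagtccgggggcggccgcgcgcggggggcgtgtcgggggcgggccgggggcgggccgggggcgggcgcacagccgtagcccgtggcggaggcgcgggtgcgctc
The stretches lie at chr9:5308599-5308848 for Casp4, chr11:59541319-59541568 for Nlrp3 and chr13:49187279-49187528 for Ninj1. In Casp4 the capitals cover overlapping matches, 2 read forward and 1 in reverse, which begin 93 and 92 bases before the start site. The second Casp4 window holds the same stretch. In the second of the 2 Nlrp3 windows there was 1 reverse match, beginning 186 bases before the start site. Across all 32851 promoter windows of the same length, 4.51% held an NF-kB consensus match, 3.44% the interferon-stimulated response element and 8.30% the interferon-gamma activated site. The last 2 motifs were found in 0 of the 12 windows of these 9 genes, which says only that these letters do not occur in these windows.

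Per length of transcript, the membrane-rupture and caspase end of the pathway was more abundant than the sensors. In FPKM, the deposited level scaled to gene length and library size, the means over the 8 libraries fell in the order Ninj1 (69.0, range 52.1 to 83.3), Casp4 (58.1, range 40.5 to 71.5), Gsdmd (44.2, range 39.5 to 49.9), Casp8 (22.6, range 21.0 to 23.7), Casp1 (20.8, range 15.98 to 26.6), Pycard (16.4, range 10.2 to 20.7), Nlrp3 (7.15, range 5.27 to 9.37), Nlrc4 (2.77, range 2.13 to 4.19), Aim2 (0.817, range 0.577 to 0.967) and Nlrp1b (0.504, range 0.426 to 0.600). The order of the means was the same in each group taken alone. Neighbours whose ranges overlapped were Ninj1 and Casp4, Casp4 and Gsdmd, Casp8 and Casp1, Casp1 and Pycard, and Aim2 and Nlrp1b. Within libraries, however, Aim2 was above Nlrp1b in 8 of 8, and the first gene of the pair was above the second in 7 of 8 for Ninj1 and Casp4, Casp4 and Gsdmd, and Casp1 and Pycard, and in 6 of 8 for Casp8 and Casp1. The lengths behind the FPKM values, recovered from the counts, were 9900 bases for Aim2 and 11223 bases for Nlrp1b, against 2839 and 4319 bases for their longest annotated transcripts. With the longest transcript as the length, the mean level of Aim2 became 2.85 and that of Nlrp1b 1.31 FPKM, Aim2 passed Nlrc4 at 2.42 FPKM, and Gsdmd, at 48.5 FPKM, passed Casp4 at 45.5 FPKM. Pycard became 9.23 FPKM, and its range of 5.75 to 11.6 then overlapped that of Nlrp3, 5.35 to 9.50 FPKM. For Pycard the length behind the FPKM was 2135 bases and the longest annotated transcript had 3800 bases. Those 3800 bases equal all annotated exon bases of the gene together, and which transcript the lung makes was not tested.

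**Figure D1:**
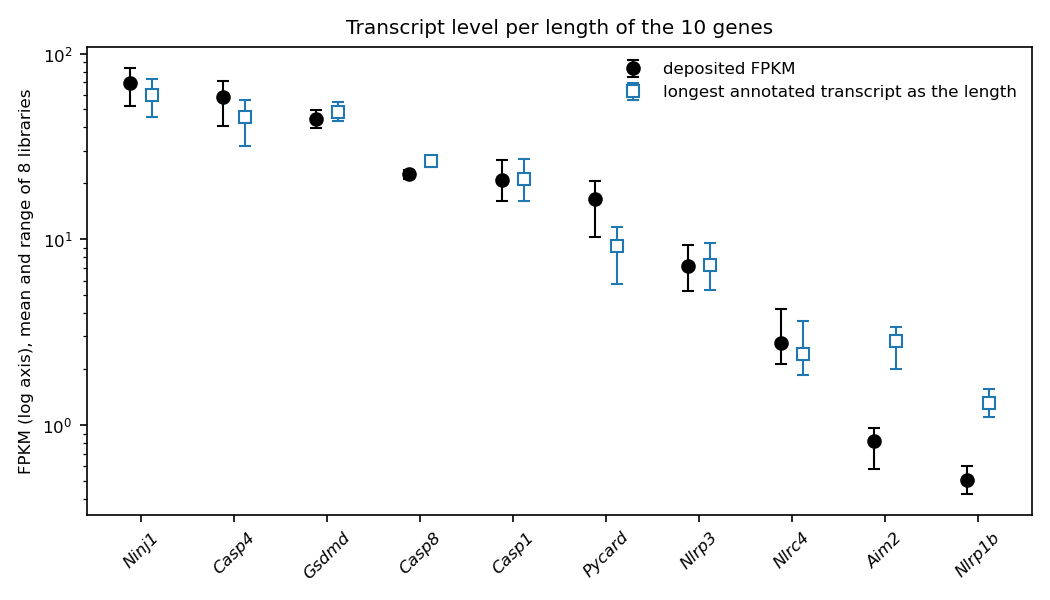
Mean level per length of the 10 genes over the 8 libraries, on a log axis in FPKM, with bars from the lowest to the highest library. Filled circles use the deposited FPKM and open squares the length of the longest annotated transcript, which lifts Aim2 from 0.817 to 2.85 and Nlrp1b from 0.504 to 1.31.

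Of the 10 genes, 1 was lower in the LPS + Tan group at an unadjusted p below 0.05 by edgeR's quasi-likelihood test, and 0 were higher. Among all 15706 genes tested, 2.25% were lower and 2.87% were higher by the same rule, so the count in the 10 rests on a single gene. At the thresholds of the study, which add an absolute log2 fold change above 1 to the unadjusted p below 0.05, 0 of the 10 genes were called, against 0.649% of all genes. After Benjamini-Hochberg adjustment over all genes edgeR called 0 genes of any kind (0%), with 804 at an unadjusted p below 0.05, limma-voom called 0 and DESeq2 called 35, none of them among the 10. The per-library values of the 2 groups overlapped for all 10 genes, whereas 2.73% of all genes tested had groups that did not overlap. By sign, 5 of the 10 log2 fold changes were negative and 5 positive, with a median of -0.024 against 0.007 for all genes, and that of Pycard turned from 0.0070 to -0.022 with limma-voom. In the following, levels are in CPM, read counts scaled to library size by the TMM method, libraries are given in the order of replicates 1 to 4, and every log2 fold change is LPS + Tan minus LPS, with its standard error (SE).

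**Figure D2:**
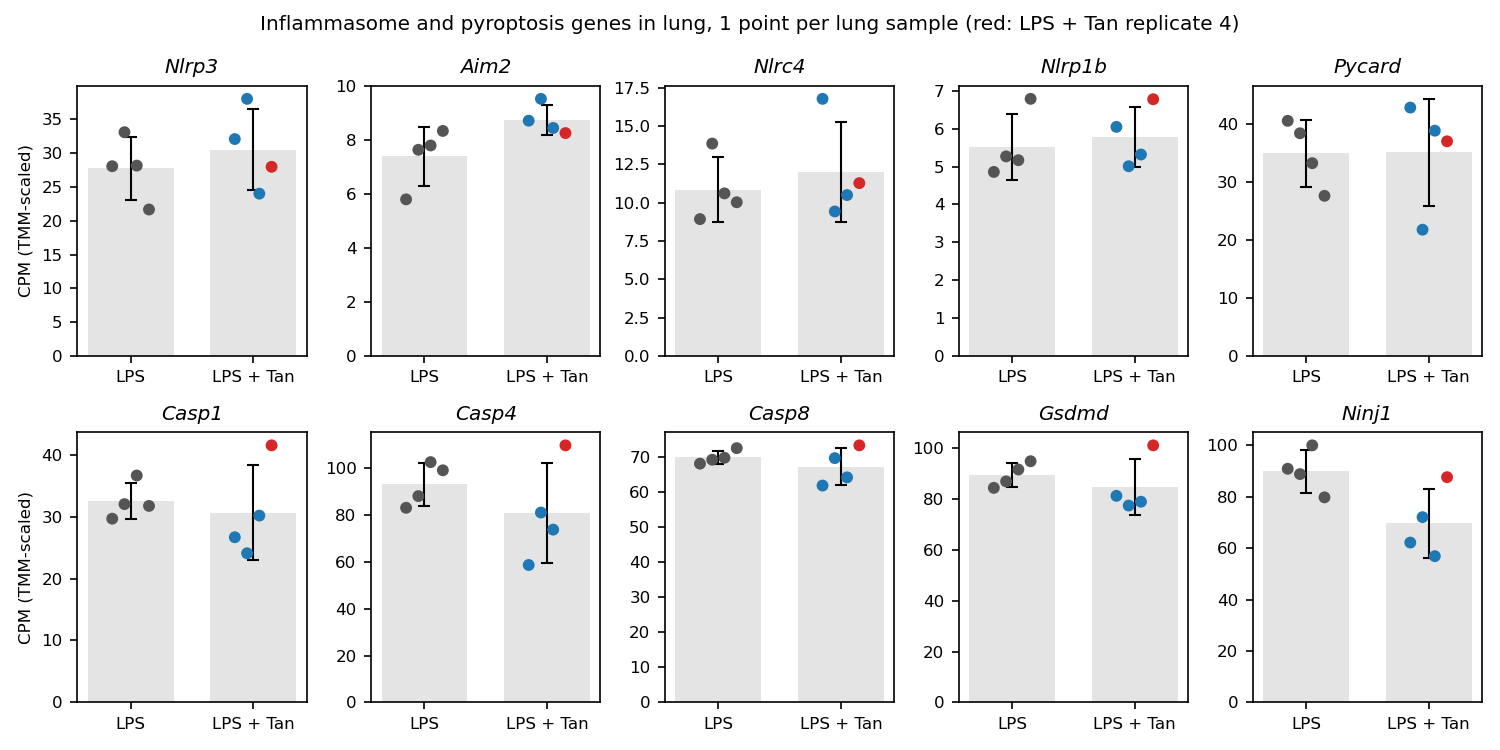
TMM-scaled CPM of the 10 genes in each lung, with LPS in grey, LPS + Tan replicates 1 to 3 in blue and LPS + Tan replicate 4 in red. Bars give the group mean and error bars the SD (n = 4). For Ninj1 the LPS + Tan mean is 69.7 against 89.9, and for Casp1, Casp4, Casp8 and Gsdmd LPS + Tan replicate 4 is the highest of the 8 libraries. That replicate is the highest in 3165 of all 15706 genes tested.

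Ninj1 (chr13:49187485-49196244, plus strand; coordinates of genes are those of GENCODE M21 on GRCm38) had the largest difference of the 10. In the LPS group its level was 90.9, 88.8, 99.98 and 79.8 CPM, and in the LPS + Tan group it was 62.2, 72.0, 56.9 and 87.6 CPM. LPS + Tan replicates 1 to 3 lay below every LPS library and replicate 4 lay within the LPS range. The mean was 69.7 ± 13.5 CPM (SD, n = 4) with tangeretin and 89.9 ± 8.30 CPM (SD, n = 4) without, all 4 tangeretin-treated lungs being below the LPS mean. This was a log2 fold change of -0.37 ± 0.13 (SE; 95% confidence interval -0.67 to -0.07), or 0.775-fold, and an unadjusted p of 0.0207 in edgeR, and an adjusted p of 0.924. Over the alternatives its adjusted p ran from 0.203 to 1. The call rested on single lungs, since the unadjusted p by edgeR was 0.0584 without LPS replicate 3, 0.0580 without LPS + Tan replicate 1 and 0.0611 without LPS + Tan replicate 3, with log2 fold changes of -0.31, -0.32 and -0.28.

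Gsdmd (chr15:75862327-75867408, plus strand) encodes the pore-forming substrate of the inflammatory caspases. Its level was 84.4, 86.9, 91.6 and 94.8 CPM in the LPS group and 81.2, 77.4, 78.9 and 101.1 CPM in the LPS + Tan group. As for Ninj1, LPS + Tan replicates 1 to 3 were below all LPS libraries, but replicate 4 was above all of them. The log2 fold change was -0.079 ± 0.099 (SE, 95% confidence interval -0.30 to 0.14, edgeR adjusted p = 0.972), so a change as large as that of Ninj1 lay outside the interval.

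Casp1 (chr9:5298517-5307265, plus strand), the caspase of the canonical inflammasomes, had 29.7, 32.0, 36.6 and 31.7 CPM in the LPS group. Its levels with tangeretin were 26.7, 24.1, 30.2 and 41.5 CPM. The LPS libraries sat inside the wider spread of the tangeretin-treated lungs, whose SD was 7.68 CPM against 2.94 CPM. The log2 fold change was -0.087 ± 0.16 (SE, edgeR adjusted p = 0.982). Casp4 (chr9:5308828-5336783, plus strand), which lies beside Casp1 and encodes the receptor for cytosolic LPS, gave 83.0, 87.97, 102.5 and 99.0 CPM in the LPS group and 58.6, 81.0, 73.7 and 109.6 CPM in the LPS + Tan group. Again the tangeretin-treated replicates 1 to 3 were below every LPS library and replicate 4 above every one, with SDs of 21.4 CPM with tangeretin and 9.14 CPM without. The log2 fold change was -0.21 ± 0.17 (SE, 95% confidence interval -0.58 to 0.17, edgeR adjusted p = 0.940). Casp8 (chr1:58795374-58847503, plus strand) is the initiator caspase of death receptors and can also cleave gasdermin D. It was at 68.0, 69.1, 69.7 and 72.4 CPM in the LPS group and at 61.8, 69.6, 64.1 and 73.2 CPM in the LPS + Tan group, with SDs of 1.88 and 5.19 CPM. Its log2 fold change was -0.056 ± 0.077 (SE, 95% confidence interval -0.23 to 0.12, edgeR adjusted p = 0.978), the narrowest interval of the 10.

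Pycard (chr7:127989708-127993867, minus strand) encodes the adaptor that links sensors to caspase-1. Its level was 40.5, 38.4, 33.2 and 27.6 CPM in the LPS group and 42.8, 21.8, 38.8 and 37.0 CPM in the LPS + Tan group. LPS + Tan replicate 2 was the lowest and replicate 1 the highest of all 8 libraries, and the means were 35.1 and 34.9 CPM. The log2 fold change was 0.0070 ± 0.20 (SE, 95% confidence interval -0.43 to 0.45, edgeR adjusted p = 0.998). An annotated transcript on the opposite strand, Gm45205, overlaps exons of Pycard, and no source used here says whether the counting was stranded.

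The 4 sensors had positive log2 fold changes over all 8 libraries, and 0 of the 4 passed the test. Nlrp3 (chr11:59541568-59566956, plus strand), the sensor of potassium efflux and many sterile and microbial signals, was at 28.1, 33.1, 28.2 and 21.7 CPM in the LPS group and at 32.1, 38.0, 24.0 and 28.0 CPM in the LPS + Tan group, with the tangeretin-treated lungs reaching from inside the LPS range to above it. Its log2 fold change was 0.14 ± 0.16 (SE, 95% confidence interval -0.22 to 0.49, edgeR adjusted p = 0.971). Aim2 (chr1:173350879-173466040, plus strand), the sensor of cytosolic double-stranded DNA, was at 5.81, 7.65, 7.81 and 8.35 CPM in the LPS group and at 8.73, 9.54, 8.46 and 8.27 CPM in the LPS + Tan group. For Aim2, 3 of the 4 tangeretin-treated lungs were above every LPS lung, and the fourth was above 3 of the 4. Its log2 fold change of 0.24 ± 0.14 (SE, 95% confidence interval -0.06 to 0.54) had an unadjusted p of 0.106 in edgeR and an adjusted p of 0.926. Nlrc4 (chr17:74425438-74459142, minus strand), which together with the NAIP proteins senses bacterial flagellin and secretion systems, was at 8.93, 13.9, 10.6 and 10.03 CPM in the LPS group and at 16.8, 9.43, 10.5 and 11.3 CPM in the LPS + Tan group. LPS + Tan replicate 1 stood above the other libraries, and the log2 fold change was 0.14 ± 0.20 (SE, edgeR adjusted p = 0.978). Nlrp1b (chr11:71153102-71230733, minus strand), the sensor of anthrax lethal factor, was at 4.86, 5.27, 5.17 and 6.79 CPM in the LPS group and at 6.05, 5.01, 5.32 and 6.78 CPM in the LPS + Tan group, nearly the same span in both. The log2 fold change was 0.068 ± 0.16 (SE, edgeR adjusted p = 0.985). Nlrp1b was measured on the fewest reads of the 10, between 190 and 262 per library, and reads could have been split between it and its neighbouring paralog Nlrp1a, so its level is uncertain.

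The caspase and effector values depended on LPS + Tan replicate 4. It was the highest of the 8 libraries in 4 of the 10 genes, namely Casp1, Casp4, Casp8 and Gsdmd, beside 3165 of all 15706 genes tested. LPS + Tan replicates 1 to 3 were below every LPS library in Casp4, Gsdmd and Ninj1, beside 722 of all genes tested. In Casp1 and Casp8, 2 of these replicates were below every LPS library. With replicate 4 left out, edgeR put 4 of the 10 genes lower and 0 higher at an unadjusted p below 0.05, against 4.56% lower and 4.78% higher of the 15932 genes then tested. The log2 fold changes without it were -0.27 for Casp1 (unadjusted p = 0.0306, edgeR), -0.39 for Casp4 (unadjusted p = 0.0118, edgeR), -0.18 for Gsdmd (unadjusted p = 0.0302, edgeR) and -0.50 for Ninj1 (unadjusted p = 0.00121, edgeR). Their adjusted p values were 0.475, 0.388, 0.475 and 0.203, so none of the 4 passed after adjustment over all genes. Casp8 without it had a log2 fold change of -0.10 (edgeR unadjusted p = 0.176), and the 4 sensors and Pycard stayed between -0.02 and 0.27. Each library was left out in turn, and leaving out this one moved the calls of the 10 genes most. No label or method sets it apart from the other 3.

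**Figure D3:**
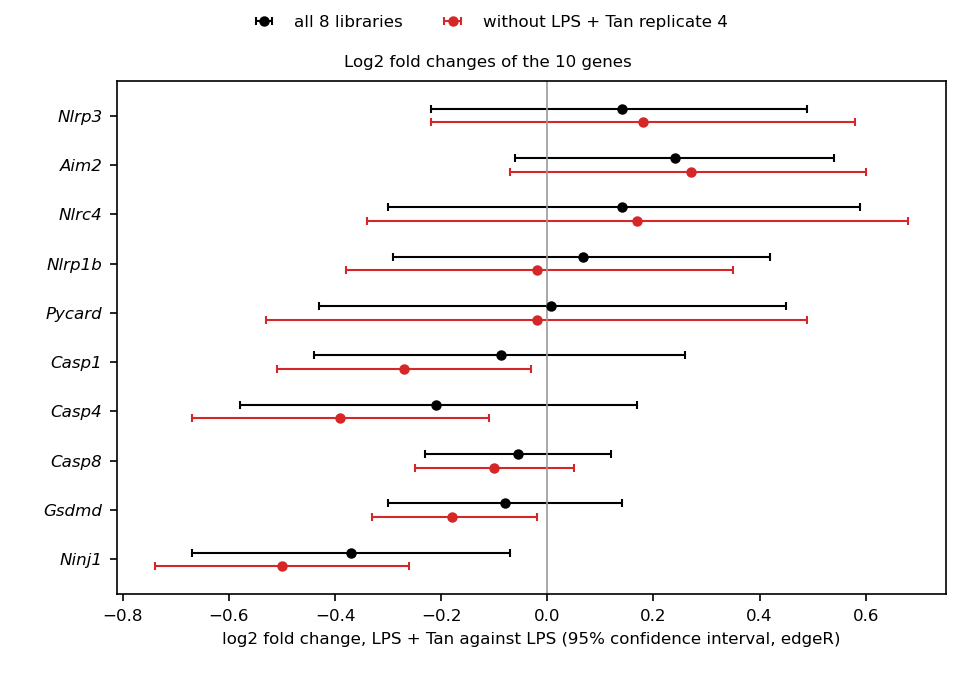
Log2 fold change of the 10 genes, LPS + Tan against LPS, with 95% confidence intervals by edgeR, over all 8 libraries in black and without LPS + Tan replicate 4 in red. Over all libraries the interval of Ninj1 alone lies below 0, and without the replicate those of Casp1, Casp4, Gsdmd and Ninj1 do.

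The same library stood apart in the genes that act on intracellular LPS and in the interferon response, which are known to prime the caspase-11 arm. The list held 14 genes, all tested. By edgeR 0 of the 14 were called at an unadjusted p below 0.05 in either direction over all libraries (1 with DESeq2, Gbp7, and 2 with limma-voom, Gbp5 and Gbp7, all lower), 13 of the 14 log2 fold changes were negative (12 without scaling factors), and their median was -0.434 beside 0.007 for all genes. In 12 of the 14, LPS + Tan replicate 4 was the highest of the 8 libraries and LPS + Tan replicates 1 to 3 were below every LPS library, a pattern looked for after the values were seen and found in 1.99% of all genes tested and in 2 of the 10 inflammasome genes, Casp4 and Gsdmd. Gbp2, a guanylate-binding protein that helps expose bacterial LPS, was at 1703, 1859, 2173 and 2168 CPM in the LPS group and at 634, 1211, 937 and 2880 CPM in the LPS + Tan group, with a log2 fold change of -0.48 ± 0.39 (SE, edgeR adjusted p = 0.940). Gbp5, a relative of Gbp2 that also promotes NLRP3 assembly, was at 1186, 1361, 1377 and 1429 CPM in the LPS group and at 375, 690, 521 and 1724 CPM in the LPS + Tan group, with a log2 fold change of -0.69 ± 0.39 (SE, edgeR adjusted p = 0.926). In both genes 3 treated lungs were far below the LPS range and the fourth was above it. Without LPS + Tan replicate 4, edgeR put 11 of the 14 lower and 0 higher at an unadjusted p below 0.05, beside 4.56% lower and 4.78% higher of all genes, with a median log2 fold change of -0.923, and 0 passed after adjustment. Gbp2 was then at -1.09 and Gbp5 at -1.34 on the log2 scale, with edgeR adjusted p values of 0.170 and 0.0782.

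**Figure D4:**
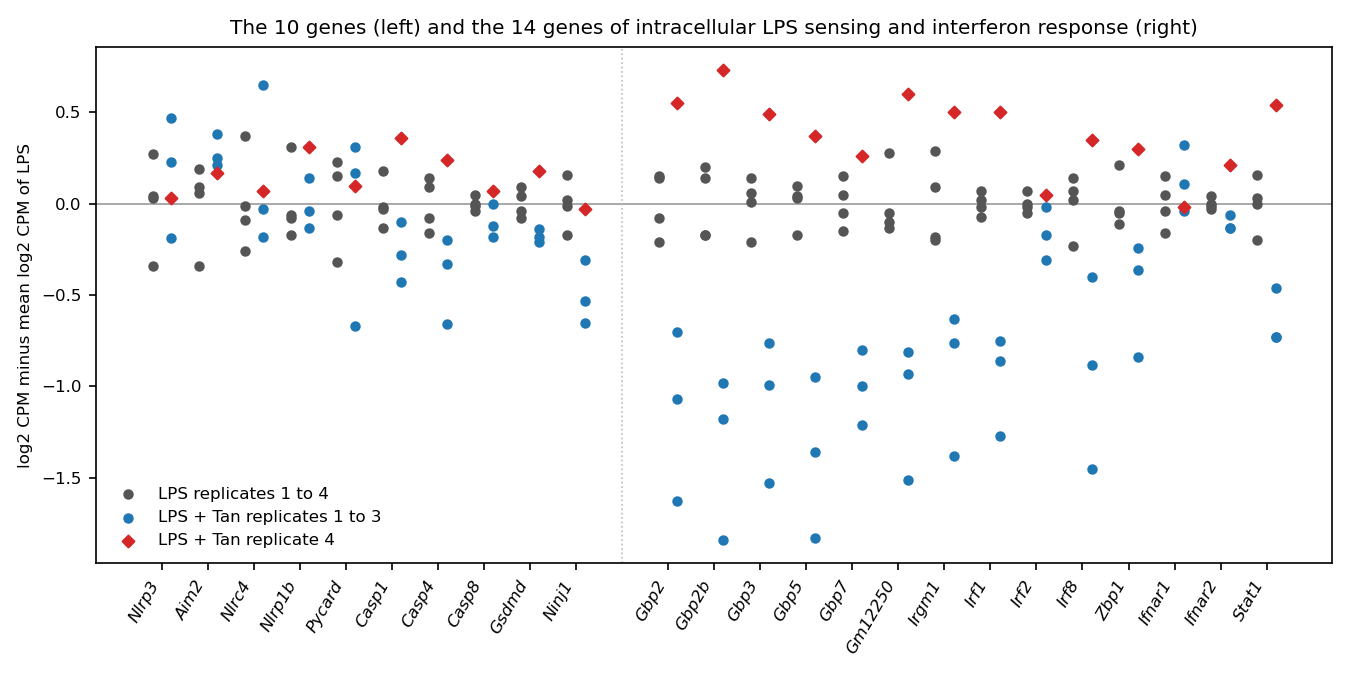
Log2 CPM of each library minus the mean log2 CPM of the LPS group, for the 10 genes on the left and the 14 genes of intracellular LPS sensing and interferon response on the right (Gm12250 is the symbol in the tables for Irgb10). LPS + Tan replicate 4 (red diamonds) is above all other libraries in 12 of the 14 genes on the right, where LPS + Tan replicates 1 to 3 (blue) lie below the LPS libraries (grey).

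Over the 63 tested genes of the 7 lists, the interferon list included, edgeR called 1 higher and 3 lower at an unadjusted p below 0.05, beside 2.87% higher and 2.25% lower of all genes, and the median log2 fold change was -0.150. Without LPS + Tan replicate 4 edgeR called 4 higher and 23 lower, 11 of the 23 in the interferon list, beside 4.78% higher and 4.56% lower of all genes. The lists name 75 genes, of which 70 were in the tables. Upstream of NLRP3, Kcnk6, the potassium channel TWIK2 whose efflux is known to trigger NLRP3 in macrophages, was the higher gene, and 6 of the 7 activation genes did not pass (median log2 fold change 0.075). With LPS + Tan replicate 4 left out, edgeR put 2 of the 7 activation genes higher and 0 lower. Kcnk6 was at 26.4, 20.9, 20.5 and 19.2 CPM in the LPS group and at 39.5, 27.6, 30.2 and 23.9 CPM in the LPS + Tan group, where 3 of the 4 lungs were above every LPS lung. Its log2 fold change was 0.48 ± 0.16 (SE, edgeR unadjusted p = 0.0133, adjusted p = 0.924, 0.302 to 1 over the alternatives). The most abundant activation genes, Txnip, a thioredoxin-binding protein, and Nek7, the kinase that bridges NLRP3 subunits, had log2 fold changes of -0.29 and -0.27 with edgeR adjusted p values of 0.927 and 0.924.

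Among the cytokines and their receptors, 1 of 9 genes was lower and 0 were higher by edgeR, beside 2.25% and 2.87% of all genes, with a median log2 fold change of -0.240. With LPS + Tan replicate 4 left out, 3 of the 9 were lower and 0 higher, beside 4.56% and 4.78% of all genes. Il1a, the alarmin IL-1α that dying cells release, was at 20.4, 14.1, 15.3 and 18.2 CPM in the LPS group and at 12.03, 13.1, 11.3 and 12.1 CPM in the LPS + Tan group. Its groups did not overlap, which held for 1 of the 63 tested list genes and for 2.73% of all genes. Its log2 fold change was -0.49 ± 0.13 (SE, edgeR unadjusted p = 0.00355, adjusted p = 0.850, 0.139 to 1 over the alternatives). Il1b, the substrate of caspase-1, was at 218, 167, 281 and 158 CPM in the LPS group and at 299, 147, 221 and 234 CPM in the LPS + Tan group, which overlapped widely. The log2 fold change was 0.13 ± 0.23 (SE, 95% confidence interval -0.38 to 0.64, edgeR adjusted p = 0.982). Il1rn, the IL-1 receptor antagonist, had a log2 fold change of -0.29 ± 0.17 (SE, edgeR adjusted p = 0.926).

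Of 13 inhibitors and membrane-repair genes, 2 were lower and 0 were higher by edgeR, beside 2.25% and 2.87% of all genes, with a median of -0.123. With LPS + Tan replicate 4 left out, 5 of the 13 were lower and 0 higher, beside 4.56% and 4.78% of all genes. Tnfaip3, which encodes the NF-kB inhibitor A20, was at 302, 349, 343 and 299 CPM in the LPS group and at 223, 312, 209 and 262 CPM in the LPS + Tan group, with a log2 fold change of -0.36 ± 0.13 (SE, edgeR unadjusted p = 0.0200, adjusted p = 0.924, 0.254 to 1 over the alternatives). Birc3, which encodes the ubiquitin ligase cIAP2, was at 225, 258, 276 and 228 CPM in the LPS group and at 184, 237, 186 and 198 CPM in the LPS + Tan group, with a log2 fold change of -0.29 ± 0.11 (SE, edgeR unadjusted p = 0.0240, adjusted p = 0.924, 0.271 to 1 over the alternatives). In both genes LPS + Tan replicate 2 lay within the LPS range and the other 3 treated lungs below it. By edgeR the unadjusted p of Tnfaip3 was 0.0550 without LPS replicate 2, 0.0572 without LPS + Tan replicate 1 and 0.0600 without LPS + Tan replicate 3. That of Birc3 was 0.0585 without LPS replicate 2, 0.0736 without LPS replicate 3, 0.0657 without LPS + Tan replicate 1 and 0.0665 without LPS + Tan replicate 3. Chmp4b and Chmp2a, subunits of the ESCRT machinery that reseals gasdermin pores, had log2 fold changes of -0.14 and 0.011.

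In the lists of other sensors and of other death genes, 0 of 8 and 0 of 11 tested genes were called by edgeR in either direction, beside 2.25% lower and 2.87% higher of all genes, with medians of 0.078 and -0.122. Without LPS + Tan replicate 4 the counts were 1 lower and 1 higher of 8 and 3 lower of 11, beside 4.56% lower and 4.78% higher of all genes. Mefv, which encodes the sensor pyrin, and Naip2, a partner of NLRC4, had log2 fold changes of 0.043 and 0.13, and that of Naip2 was 0.26 without the replicate (edgeR unadjusted p = 0.0485). Mlkl, the effector of necroptosis, was nearest to the threshold among death genes, at -0.36 ± 0.16 (SE, edgeR unadjusted p = 0.0519, adjusted p = 0.924), and it was past the threshold with DESeq2 (unadjusted p = 0.0417) and limma-voom (unadjusted p = 0.0435). Without LPS + Tan replicate 4 Mlkl was at -0.51 (edgeR unadjusted p = 0.00674, adjusted p = 0.335). Casp12, beside Casp4, was at 34.3, 43.3, 39.1 and 46.9 CPM in the LPS group and at 23.6, 31.2, 30.8 and 45.4 CPM in the LPS + Tan group (log2 fold change -0.32, edgeR adjusted p = 0.926). Nlrp1a, the neighbour of Nlrp1b, was at 11.4, 12.7, 11.8 and 13.1 CPM in the LPS group and at 9.99, 8.06, 8.97 and 14.5 CPM in the LPS + Tan group (log2 fold change -0.24, edgeR adjusted p = 0.936). In both of these paralogs LPS + Tan replicates 1 to 3 were below every LPS library, and replicate 4 was within the LPS range for Casp12 and above it for Nlrp1a. Without replicate 4 the log2 fold change by edgeR was -0.52 for Casp12 (unadjusted p = 0.00434, adjusted p = 0.306) and -0.44 for Nlrp1a (unadjusted p = 0.00429, adjusted p = 0.304). Of 10 listed genes of other gasdermins and of Ninj2, 7 were in the tables and 1 had enough reads for a test. Gsdme, the gasdermin cleaved by caspase-3, was at 1.51, 1.47, 1.86 and 1.97 CPM in the LPS group and at 3.86, 2.44, 2.43 and 1.20 CPM in the LPS + Tan group (log2 fold change 0.55 ± 0.32 (SE), edgeR adjusted p = 0.927), and without LPS + Tan replicate 4 its log2 fold change was 0.77 (edgeR unadjusted p = 0.0112, adjusted p = 0.382). Ninj2, the relative of Ninj1, had 14 reads over the 4 LPS libraries and 5 over the 4 LPS + Tan libraries, too few for a test.

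Total counts per library lay between 38895654 and 39931970, so depth hardly differed. Markers of lung were high, with Sftpc of alveolar type 2 cells between 3359 and 7135 CPM, and the hepatocyte gene Alb was below 1 CPM in every library. Because the inflammasome genes are carried by particular cells, 12 lists of cell type markers were summed in each library, and the 2 groups overlapped for all 12. The neutrophil list summed to 4623 to 6381 CPM in the LPS group and 4294 to 6180 CPM in the LPS + Tan group, with 0 of 11 genes called by edgeR at an unadjusted p below 0.05, beside 2.87% higher and 2.25% lower of all genes. The macrophage and monocyte list summed to 3370 to 5075 and 3680 to 5161 CPM, with 1 of 15 genes, C1qa, higher. With LPS + Tan replicate 4 left out, edgeR put C1qa (unadjusted p = 0.0352), Cd68 (0.0368) and Csf1r (0.0403) higher. In that fit 4.78% of all genes were higher and 4.56% lower. The endothelial list summed to 3105 to 3826 and 3632 to 4008 CPM, with 2 of 6 genes, Kdr and Tek, higher, whereas Cdh5 and Cldn5 had log2 fold changes of -0.15 and -0.029. With LPS + Tan replicate 4 left out, Kdr was past the threshold (edgeR unadjusted p = 0.00853) and Tek was not (0.0770). In the other 9 lists edgeR called 0 genes over all libraries, while DESeq2 called 3 at an unadjusted p below 0.05, all lower, namely Flt3 of dendritic cells (0.0337) and the erythroid globins Hbb-bs (0.0268) and Hbb-bt (0.0499). With LPS + Tan replicate 4 left out, edgeR put the airway gene Foxj1 (unadjusted p = 0.0239) and the erythroid gene Hba-a2 (0.0471) lower. The cardiac gene Myh6 was then higher (edgeR unadjusted p = 0.0285). All 5 erythroid markers had negative log2 fold changes, and their sum was 1415 to 3427 CPM in the LPS group and 1315 to 2133 CPM in the LPS + Tan group, with means of 2577 and 1864 CPM. LPS + Tan replicate 4 had the highest sum of the 8 for the macrophage and monocyte list and for the alveolar epithelial list (13434 CPM, against 8278 to 12150 CPM in the LPS group), the lowest for the fibroblast list (2124 CPM), and the fourth highest for the neutrophil list (5784 CPM). The part of these cell types in the values of that library was not tested.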

How the data were processed

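Counts of reads per gene and FPKM values for the same 24584 genes were deposited by the authors for 4 LPS and 4 LPS + Tan lungs. The FPKM values deposited equal counts over gene length and library total. The methods of the study name TRIzol and the VAHTS Universal V6 kit and the labels name other kits. The submitters' processing notes name the builds GRCm38 and mm10. Not given in the sources used here are the aligner and counter. The count test was edgeR 4.0.16 under R 4.3.3 (filterByExpr, TMM, quasi-likelihood test, no covariate), and p was adjusted over the 15706 genes tested. The alternatives were DESeq2 1.42.0, limma 3.58.1 (voom, log2(FPKM + 1), log2(FPKM + 0.1)), RLE scaling, no scaling factors, no filter, a filter of 1 CPM in 4 libraries, a replicate block, and each library left out. The members and lists were chosen with earlier results of these data known. Named genes are the members, every list gene with an unadjusted p below 0.05 by edgeR over all libraries, the 2 genes of each list with the highest mean FPKM, and near paralogs. Markers, Gbp7 among the list genes and Gm12250 were named after their values were seen. The labels do not state that each sample is a separate mouse, so p-values measure the spread between samples, which may be technical. Where lungs are counted in the text, lung samples are meant. The script was tested on simulated data. The counts of every pair of libraries of a group differed by more than sampling noise, so no library was a copy of another, which does not tell separate mice from separate preparations. No column of sample values was left without a sample (0). Coordinates were read from GENCODE M21, and promoters from RefSeq.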

Additional observations from a re-analysis of the deposited data

How the results depend on the processing

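Of 170 values of the log2 fold change of the 10 genes under the alternatives, 154 kept their direction and their side of the threshold. By leaving out 1 library at a time, the number of the 10 genes called ranged from 0 to 4, that of the other pathway genes from 2 to 27 against 4, and that of all genes from 480 to 1626 against 804. The 0 arose without LPS replicate 3 and without LPS + Tan replicate 1 or 3, and the 4 and the 27 without LPS + Tan replicate 4. All genes called numbered 480 without LPS + Tan replicate 1, 1626 without replicate 2 and 1488 without replicate 4. Pathway genes called numbered 7 with limma-voom and without LPS + Tan replicate 2, and 2 without LPS + Tan replicate 1 or 3. Over the left-out libraries the log2 fold change ran from -0.063 to 0.28 for Nlrc4, from -0.016 to 0.18 for Nlrp1b, from -0.11 to 0.18 for Pycard, from -0.27 to 0.012 for Casp1, from 0.015 (without LPS + Tan replicate 2) to 0.23 for Nlrp3, from 0.14 (without LPS replicate 1) to 0.30 for Aim2, from -0.39 to -0.081 (without LPS + Tan replicate 1) for Casp4, from -0.10 to -0.020 (without LPS + Tan replicate 1) for Casp8, from -0.18 to -0.038 (without LPS + Tan replicate 2) for Gsdmd and from -0.50 to -0.28 for Ninj1. Sign reversed without a call for Nlrc4 without LPS + Tan replicate 1 (-0.063), for Nlrp1b without LPS + Tan replicate 4 (-0.016), for Casp1 without LPS + Tan replicate 2 (0.012), and for Pycard, between -0.11 and -0.016 without LPS replicate 3 (-0.016), LPS replicate 4 (-0.091), LPS + Tan replicate 1 (-0.11), 3 (-0.048) or 4 (-0.019), with limma-voom (-0.022) and with the replicate block (-0.018). Values for Casp1, Casp4 and Gsdmd without LPS + Tan replicate 4 and for Ninj1 without 3 libraries are given with those genes. With the replicate number as a block, 16 pathway genes were called, 15 lower, 9 of the 15 in the interferon list, beside 2.53% higher and 2.73% lower of all genes, and of the 10 genes Ninj1 alone. Same-numbered libraries had correlations of their deviations of 0.123, -0.0306, -0.148 and 0.0195, and no LPS library correlated best with the LPS + Tan library of its own number. A batch shared by same-numbered samples was not tested. With the longest transcript as the length, chosen after seeing the data, 6 of the 10 genes kept their rank. The marker lists overlapped in all 12 cases also without TMM factors. Causes were not tested. With 4 lung samples a group, the intervals of the 4 sensors hold a rise of the size of the Ninj1 difference but not a fall of that size. They rest on the spread between samples, which the labels do not state to be separate mice. No untreated lung gives a baseline.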
